A study of Mus musculus with 26 samples.

Results

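The comparison described here set the hippocampus of non-transgenic mice given a lentivirus encoding green fluorescent protein (GFP) against the hippocampus of non-transgenic mice with a sham lesion. Arrays were taken by their labels alone, as hippocampal arrays of non-transgenic animals, which gave 2 GFP arrays and 3 sham arrays, or 5 of the 26 arrays in the series. The whole series profiled entorhinal cortex and hippocampus of aged mice, with and without an amyloid precursor protein (APP) transgene, on Affymetrix arrays. The vector had been delivered to the entorhinal cortex, so the hippocampus lay outside the injected region, and tissue was taken 4 weeks later. None of these 5 animals carried the transgene. The other 8 hippocampal arrays came from transgenic animals, 4 given a GFP vector and 4 given a vector for brain-derived neurotrophic factor (BDNF). The 3 sham arrays were therefore the only hippocampal arrays from animals without a vector. The labels describe replicates as biological and do not give the promoter in the vector, the mouse strain, an age in months or what the sham lesion consisted of.

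A lentiviral vector carries its cargo gene into dividing and non-dividing cells and is a usual control when another gene is delivered in the same way. GFP is a jellyfish protein that mouse cells do not normally make, and both vector particles and foreign proteins can be presented to the immune system. Major histocompatibility complex (MHC) class I molecules present peptides made inside a cell to CD8 T cells. MHC class II molecules, loaded with the help of the invariant chain Cd74, present ingested material to CD4 T cells, and interferon-gamma raises both. B cells that mature into plasma cells secrete antibodies, and the healthy brain holds few of them.

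Values are log2 expression levels per probe set, and 1 probe set stood for each of 14941 genes tested. Differences are GFP minus sham on the log2 scale, each from 1 linear model fitted with limma to all 13 hippocampal arrays, with an adjusted p (Benjamini-Hochberg) under 0.05 called. The region labels were checked first. Markers of dentate granule cells averaged 8.21 to 8.77 on the hippocampal arrays of the series, against 6.76 to 7.08 on the entorhinal arrays. Over all probe sets the GFP arrays correlated with each other at 0.993 and with the sham arrays at 0.987 to 0.990, while pairs of sham arrays correlated at 0.992 to 0.997. Xist, the RNA made from the inactive X chromosome of female cells, was high on all 5 arrays, at 10.75 and 10.88 on the GFP arrays and at 10.53 to 10.83 on the sham arrays. Sham array 1 stood apart in choroid plexus: its 17 tested markers averaged 7.95, against 6.13 to 6.32 on the other 12 hippocampal arrays. It also lay apart from the other sham arrays for some single genes, such as Serpina3n (10.14, against 8.86 and 8.84). Sham array 1 correlated with the other sham arrays at 0.992 and 0.993, and those correlated with each other at 0.997. The number of arrays limits the precision throughout. In whole tissue, fewer cells of a type and less RNA per cell cannot be told apart.

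Of the 14941 genes, 5 were called (0.0335%), of which 3 rose (0.0201%) and 2 fell (0.0134%) in GFP hippocampi relative to sham. The genes that rose were Creg2, Pmaip1 and Cwc22, and the genes that fell were Galc and Fgf1. At an unadjusted p under 0.05 there were 1344 genes (9%), 545 higher (3.65%) and 799 lower (5.35%). The median difference of all genes was −0.04, and 38.3% of genes had a difference above 0. GFP arrays lay wholly above sham arrays for 10.1% of genes and wholly below them for 18.9%. These shares are the background for the counts that follow.

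Cwc22 encodes a splicing factor that helps place exon junction complexes on messenger RNA. Its level was 7.79 and 7.81 on the GFP arrays, against 6.71, 6.56 and 6.63 on the sham arrays. The GFP arrays nearly coincided and lay far outside the sham range. The difference was 1.16 ± 0.10 (SE), or 2.24-fold, with a limma adjusted p of 0.000545. Pmaip1 encodes Noxa, a protein that promotes cell death by binding relatives of Bcl2 and is a textbook target of p53. It was at 6.46 and 6.15 on the GFP arrays, against 5.16, 5.02 and 4.83 on the sham arrays, a difference of 1.30 ± 0.12 (SE, adjusted p = 0.000902). Cwc22 and Pmaip1 passed the threshold under every alternative setting run for the hippocampus.

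Creg2 encodes a secreted glycoprotein found mainly in brain. It had the largest difference of the called genes, with 9.72 and 10.26 on the GFP arrays, against 8.38, 7.77 and 7.90 on the sham arrays. The GFP arrays were higher by 1.97 ± 0.27 (SE), or 3.91-fold, with an adjusted p of 0.0170, and the groups did not overlap. Without GFP array 2, sham array 2 or sham array 3, Creg2 no longer passed the threshold (adjusted p = 0.177, 0.0848 and 0.115), nor did it with the trend and robust options of limma (adjusted p = 0.0595).

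Galc encodes the lysosomal enzyme galactosylceramidase, which breaks down galactolipids of myelin. Its level was 7.45 and 7.37 on the GFP arrays, against 8.47, 8.21 and 8.36 on the sham arrays. It fell by 0.93 on the log2 scale (SE 0.13, adjusted p = 0.0170), and the groups did not overlap. Its other 2 probe sets were dim, at most 4.59 on these 5 arrays, and differed by −0.05 and −0.22. Fgf1 encodes acidic fibroblast growth factor, a secreted ligand of fibroblast growth factor receptors. It was at 8.34 and 8.06 on the GFP arrays, against 9.15, 9.01 and 9.03 on the sham arrays, a fall of 0.87 (SE 0.09, adjusted p = 0.00238). Its other bright probe set differed by −0.62 and a dim one by −0.14. The call on Galc was lost without GFP array 1 or 2 and without sham array 1 or 3, with adjusted p between 0.0689 and 0.153. The call on Fgf1 was lost without GFP array 2 (adjusted p = 0.0630). With the probe sets of each gene averaged both calls were lost, with a difference of −0.40 for Galc (adjusted p = 0.125) and −0.54 for Fgf1 (adjusted p = 0.0693).

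**Figure D1:**
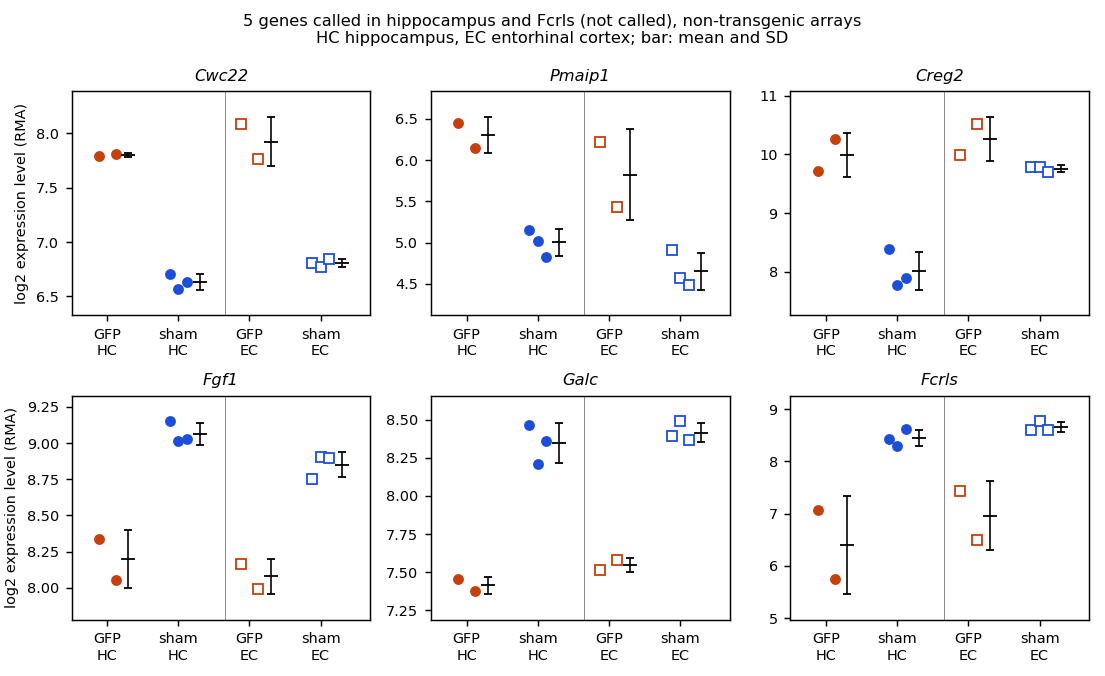
Log2 expression levels of the 5 called genes and of Fcrls (not called) on the non-transgenic arrays of hippocampus (HC, filled circles) and entorhinal cortex (EC, open squares), GFP in orange left of sham in blue. Black marks give the mean and SD of 2 GFP or 3 sham arrays. In hippocampus the GFP arrays of Cwc22, Pmaip1 and Creg2 lie above all sham arrays, and those of Galc, Fgf1 and Fcrls lie below them.

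The transgenic hippocampi, which entered none of these differences, had levels of the 5 genes close to those of the GFP arrays. Over the 8 transgenic arrays Cwc22 ranged from 7.31 to 7.76 and Pmaip1 from 5.99 to 6.51. Creg2 ranged from 9.19 to 10.14 there. Each of these ranges lay above all 3 sham arrays. Galc ranged from 7.17 to 7.59 and Fgf1 from 8.11 to 8.32, below all 3 sham arrays. The transgenic animals differed from sham by genotype as well as by vector, and Xist ranged from 5.38 to 11.01 on their arrays, so sex differed as well on some. For them genotype and vector cannot be told apart. A vector had been given to these and to the non-transgenic GFP animals, and the labels name no batch or strain. The cause of the likeness was not tested.

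Several genes came close to the threshold. Ighg3, the constant region of an immunoglobulin G heavy chain, had a difference of 2.32 with an adjusted p of 0.0560. Fcrls, an Fc receptor-like gene that marks mouse microglia, was at 7.07 and 5.74 on the GFP arrays, against 8.44, 8.29 and 8.61 on the sham arrays. Its difference of −2.04 ± 0.34 (SE) had an adjusted p of 0.0866, and the GFP arrays differed from each other more than the sham arrays did. The gene 1500015A07Rik differed by −0.59 with the same adjusted p. Among the 10 smallest p-values of each direction were also Slpi (a secreted protease inhibitor, difference 2.43), Casp1 (the inflammasome protease, 1.03) and Gimap4 (a GTPase of lymphocytes, 1.03) on the higher side. On the lower side were Fzd4 (a Wnt receptor, −0.46 on the probe set used), Gys1 (muscle-type glycogen synthase, −0.42) and Mapk7 (the kinase ERK5, −0.38). The adjusted p of these 6 genes lay between 0.168 and 0.249.

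The sizes of the differences were ordered otherwise than their p-values. Large differences were found for genes of antibody-secreting cells and of MHC class II, whose levels also ranged widely among the 8 transgenic arrays that share the estimate of the spread. When limma was fitted to the 5 non-transgenic arrays alone, 21 genes were called, 19 higher and 2 lower, and 4 of the 5 genes above were among them. They included the antibody genes Igkv8-30, Ighm, Jchain, Igk, Ighg3 and Igha, the class II genes Cd74, H2-Aa and H2-Ab1, and genes outside these groups. Fgf1 was not called in that fit. Both fits are given below, as the 13-array fit and the 5-array fit.

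Genes of antibody-secreting cells were among those with large differences. The product of Jchain, made by plasma cells, links IgM or IgA units into polymers. Jchain was at 11.00 and 10.89 on the GFP arrays, against 3.21, 4.42 and 4.02 on the sham arrays. This was a difference of 7.06 ± 1.48 (SE) in the 13-array fit (adjusted p = 0.240) and had an adjusted p of 0.000647 in the 5-array fit. The mean of the sham arrays, 3.88, lay below the level of 4.33 used as the filter, which Jchain passed through arrays where it is high, so the size of this difference is uncertain and is not ranked. Ighm, the heavy chain of IgM, was at 12.12 and 12.44 on the GFP arrays, against 6.31, 6.60 and 6.39 on the sham arrays, a difference of 5.85. For both genes the GFP arrays lay close to each other and the groups did not overlap.

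The IgA heavy chain Igha was at 11.31 and 9.67 on the GFP arrays, against 5.78, 5.75 and 5.64 on the sham arrays. Ighg3 was at 8.16 and 7.49 on the GFP arrays, against 5.53, 5.48 and 5.51 on the sham arrays. The probe sets used for 3 heavy chain classes were thus higher on both GFP arrays. The other Ighg3 probe sets were dim, at most 4.18 on these arrays, and differed by −0.05, 0.05 and 0.17. The light chain gene Igk was at 6.57 and 6.74 on the GFP arrays, against 4.52, 4.86 and 4.36 on the sham arrays. Igkv8-30, a light chain variable segment, differed by 5.85 and had the smallest adjusted p in the 5-array fit, 3.64e-06. Immunoglobulin genes are near copies of each other, so a probe set named for one may also read others. Of the 10 further probe sets annotated to Ighm, differences ran from −0.11 to 7.21, and one of them was at 4.08 and 9.66 on the GFP arrays.

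Other genes of B cells and plasma cells were also measured. Ms4a1, which encodes CD20 of B cells, was at 5.43 and 4.94 on the GFP arrays, against 4.11, 4.39 and 4.05 on the sham arrays. Mzb1, a chaperone of antibody assembly, was at 7.61 and 6.67 on the GFP arrays, against 5.57, 5.43 and 5.37 on the sham arrays. Cd79a, a part of the B cell receptor, differed by 0.44, and the transcription factors Xbp1 (of secreting cells) and Pax5 (of B cells) differed by −0.01 and −0.12. Of 27 genes listed for B cells and plasma cells, 19 were on the array and 13 passed the filter on low values. That filter uses the mean over all 26 arrays, so a gene near the floor in sham can have passed because it was high elsewhere. Among the 13, 11 were higher and 8 had GFP arrays wholly above sham (10.1% of all genes), with a median of 1.003. Their mean level was 7.59 and 7.29 on the GFP arrays, against 5.42, 5.60 and 5.40 on the sham arrays. Over all 19 on the array, 15 were higher and the median was 0.35. In the 13-array fit 0 of the 13 were called, with 8 at an unadjusted p under 0.05. The part of these cells in the other differences was not tested.

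All 11 tested MHC class II genes were higher in GFP hippocampi. Cd74, the invariant chain, was at 11.81 and 10.23 on the GFP arrays, against 6.38, 6.22 and 6.22 on the sham arrays. Its difference of 4.75 ± 1.18 (SE) corresponded to 26.9-fold, with an adjusted p of 0.373 in the 13-array fit and 0.0134 in the 5-array fit. H2-Aa and H2-Ab1, the chains of the class II molecule I-A, differed by 4.57 and 4.30 and were called in the 5-array fit as well. H2-Aa was at 11.16 and 9.86 on the GFP arrays, against 6.22, 5.72 and 5.86 on the sham arrays. H2-Eb1, the beta chain of I-E, was at 10.85 and 8.45 on the GFP arrays, against 5.75, 5.62 and 6.36 on the sham arrays. For each of these 4 genes GFP array 1 was the higher of the pair, and both lay far above sham.

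Loading and processing genes of class II differed less than the chains themselves. Ifi30, a lysosomal thiol reductase, differed by 0.77, the cathepsin Ctss by 0.74 and the loading factor H2-DMa by 0.51. Ciita, the transcription factor that switches class II genes on, was dim, at 4.72 and 4.78 on the GFP arrays, against 4.46, 4.36 and 4.69 on the sham arrays. The median of the 11 genes was 1.35, against −0.04 for all genes tested, and 10 of the 11 had an unadjusted p under 0.05 on the higher side, against 3.65% of all genes. Without GFP array 1 the median was 0.47, and without GFP array 2 it was 2.11.

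Class I genes followed the same order of arrays. H2-D1, a classical class I heavy chain, was at 12.49 and 10.86 on the GFP arrays, against 9.64, 9.16 and 9.33 on the sham arrays. H2-K1 was at 12.11 and 11.17 on the GFP arrays, against 9.91, 9.46 and 10.10 on the sham arrays. B2m, the light chain that all class I molecules need, was at 12.45 and 11.87 on the GFP arrays, against 10.93, 10.72 and 11.08 on the sham arrays. Genes that make and carry peptides for class I had the same direction. The immunoproteasome subunits Psmb9 and Psmb8 differed by 1.81 and 1.63, and the peptide transporter subunit Tap1 by 1.19. Nlrc5, which activates class I genes, was at 7.35 and 5.17 on the GFP arrays, against 3.92, 4.14 and 4.39 on the sham arrays. Its sham mean, 4.15, lay below the filter level of 4.33, so the size of its difference is uncertain. The general chaperones Canx, Pdia3 and Calr differed by 0.05, −0.04 and −0.12. Of 17 tested genes 15 were higher, 11 of them at an unadjusted p under 0.05, and the median was 0.77, or 0.23 without GFP array 1 and 1.32 without GFP array 2. The 13-array fit called 0 of the 17. Classical class I genes are near copies, and their probe sets can read each other. The other H2-D1 probe sets differed by −0.13 to 4.43, and on some of them the sham arrays lay far apart. The one with the largest difference was at 10.10 and 9.01 on the GFP arrays, against 7.29, 3.78 and 4.29 on the sham arrays.

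**Figure D2:**
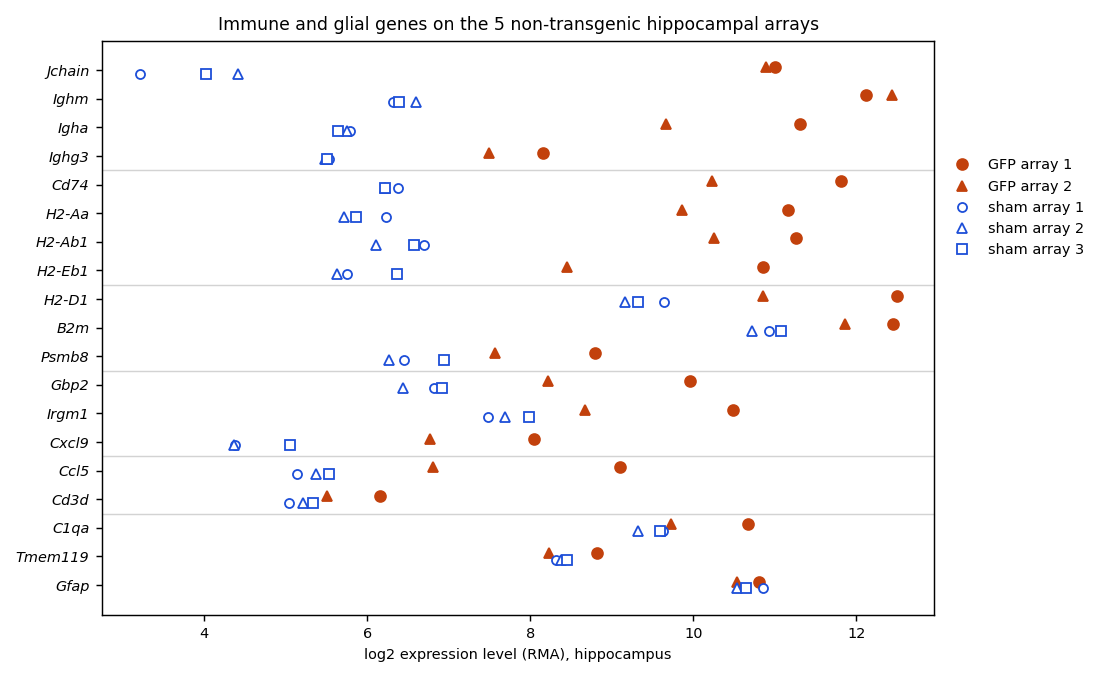
Log2 expression levels of 19 immune and glial genes on the 5 non-transgenic hippocampal arrays, GFP arrays filled orange and sham arrays open blue, with a marker shape for each array. Grey lines separate antibody, MHC class II, class I, interferon-stimulated, T cell, and glial genes. For the antibody and MHC genes both GFP arrays lie above all sham arrays, while Gfap overlaps.

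Interferon-stimulated genes are switched on by interferons through STAT and IRF transcription factors. Of 49 listed, 43 were on the array and 41 passed the filter, and 36 of the 41 were higher in GFP hippocampi. The median was 0.57, with 14 at an unadjusted p under 0.05 on the higher side and 0 on the lower. Iigp1 and Irgm1, immunity-related GTPases that act on vacuoles of intracellular parasites, differed by 2.92 and 1.86. Irgm1 was at 10.49 and 8.67 on the GFP arrays, against 7.48, 7.69 and 7.99 on the sham arrays. Gbp2, a guanylate-binding protein, was at 9.96 and 8.22 on the GFP arrays, against 6.82, 6.44 and 6.92 on the sham arrays. All 3 are known as targets of interferon-gamma in mouse.

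For some genes better known as targets of type I interferon the groups overlapped. Ifit3 was at 8.71 and 7.69 on the GFP arrays, against 7.22, 7.06 and 7.69 on the sham arrays, so that GFP array 2 overlapped sham. Ifit1 was at 7.04 and 5.47 on the GFP arrays, against 5.75, 5.59 and 6.21 on the sham arrays, and Usp18 and Rsad2 overlapped as well. Zbp1 of the same list did not overlap, at 5.74 and 5.30 on the GFP arrays, against 4.91, 4.94 and 5.11 on the sham arrays. Targets of the 2 kinds of interferon were not compared by a test. In 15 of the 41 genes both GFP arrays lay above all sham arrays (10.1% of all genes). The median of the list was 0.10 without GFP array 1 and 1.16 without GFP array 2. Except for Zbp1, these further interferon genes were picked with their values known.

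Promoters of some genes from these groups are shown as examples that hold letters that interferon and class II factors are known to read. Members without a match are not shown. The interferon-stimulated response element was searched as a pair of GAAA blocks with 2 bases of any kind between them, on both strands, from 250 bases before to 50 bases after the start of each gene in RefSeq (GRCm38.p6). It was present for 3.99% of 27025 genes and for 19 of the 32 tested interferon-stimulated genes with a RefSeq promoter (59.4%). Of 14 such class I genes 3 held it (21.4%). Class II promoters are known for an X box and a Y box. The Y box core ATTGG was present for 41.1% of all genes and for 6 of 8 class II genes, and an X box core (AG, any 2 bases, AC, any 1 base, GATG) for 1.14% of all genes and 2 of the 8. Capitals mark the interferon element in the first 4 sequences and the X and Y box cores in H2-Eb1, on either strand, and each sequence runs in the direction of its gene. Irgm1, Cxcl10 and B2m each also hold 1 match to the Y box core, left in lower case. A match describes these letters only.
Gbp2, chr3:142620413-142620712, plus strand: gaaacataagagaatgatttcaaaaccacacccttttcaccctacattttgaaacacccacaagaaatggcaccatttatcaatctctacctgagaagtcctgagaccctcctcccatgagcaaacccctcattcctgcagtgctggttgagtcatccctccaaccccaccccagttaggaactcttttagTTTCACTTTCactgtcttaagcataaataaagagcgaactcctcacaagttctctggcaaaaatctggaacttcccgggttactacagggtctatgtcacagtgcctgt
Irgm1, chr11:48871371-48871670, minus strand: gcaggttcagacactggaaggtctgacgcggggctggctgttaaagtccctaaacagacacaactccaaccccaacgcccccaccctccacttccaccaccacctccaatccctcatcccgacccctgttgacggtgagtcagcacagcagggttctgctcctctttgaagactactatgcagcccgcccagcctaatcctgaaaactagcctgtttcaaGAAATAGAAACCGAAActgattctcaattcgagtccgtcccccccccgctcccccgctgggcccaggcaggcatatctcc
Cxcl10, chr5:92348840-92349139, minus strand: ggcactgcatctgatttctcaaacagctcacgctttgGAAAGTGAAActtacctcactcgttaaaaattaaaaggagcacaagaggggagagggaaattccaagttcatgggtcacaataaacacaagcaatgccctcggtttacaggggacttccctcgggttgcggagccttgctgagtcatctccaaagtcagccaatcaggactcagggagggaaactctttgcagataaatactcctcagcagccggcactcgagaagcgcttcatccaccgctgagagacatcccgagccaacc
B2m, chr2:122147437-122147736, plus strand: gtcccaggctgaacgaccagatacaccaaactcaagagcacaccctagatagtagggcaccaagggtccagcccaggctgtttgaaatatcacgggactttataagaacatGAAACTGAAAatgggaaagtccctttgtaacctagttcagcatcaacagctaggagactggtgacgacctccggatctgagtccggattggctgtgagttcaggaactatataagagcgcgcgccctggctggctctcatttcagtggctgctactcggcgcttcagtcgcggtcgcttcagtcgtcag
H2-Eb1, chr17:34305617-34305916, plus strand: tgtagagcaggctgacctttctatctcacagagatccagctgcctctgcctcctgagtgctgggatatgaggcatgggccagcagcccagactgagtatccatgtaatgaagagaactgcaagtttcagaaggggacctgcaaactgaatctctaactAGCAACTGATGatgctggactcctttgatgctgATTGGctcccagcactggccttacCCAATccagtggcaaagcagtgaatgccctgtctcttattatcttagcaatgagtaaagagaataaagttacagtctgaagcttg

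Counted from the start of the gene, the match in Gbp2 began at base −59, on the opposite strand. Irgm1 held 2 overlapping matches, which began at −30 and −24. The matches of Cxcl10 and B2m lay farther out, at −213 and −139. H2-Eb1 held the X box core at −92 and the Y box core at −59 and −35. On the arrays these 5 genes differed by 2.36, 1.86, 1.40, 1.25 and 3.74 in the order shown.

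Chemokines that draw lymphocytes into tissue were among the higher genes. Cxcl9, an interferon-induced ligand of Cxcr3, was at 8.04 and 6.77 on the GFP arrays, against 4.38, 4.37 and 5.05 on the sham arrays. Cxcl13, which attracts B cells, was at 7.18 and 6.83 on the GFP arrays, against 5.49, 5.51 and 5.89 on the sham arrays, and was called in the 5-array fit (adjusted p = 0.0483). Ccl5, made by activated T cells among others, was at 9.10 and 6.80 on the GFP arrays, against 5.14, 5.37 and 5.53 on the sham arrays. Groups did not overlap for any of these 3. The receptors Cxcr3 and Cxcr4 differed by 0.61 and 0.70. Cxcl12, which brain tissue makes without inflammation, differed by 0.06, and Cx3cl1, made by neurons, by −0.09. Of 23 tested genes 17 were higher, 9 of them at an unadjusted p under 0.05, with a median of 0.14, or 0.29 without GFP array 1 and 0.20 without GFP array 2.

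Markers of T cells and natural killer cells were dim. Cd3d, a part of the T cell receptor complex, was at 6.16 and 5.51 on the GFP arrays, against 5.04, 5.21 and 5.34 on the sham arrays. Nkg7, a granule protein of cytotoxic cells, was at 6.30 and 5.17 on GFP arrays, against 4.39, 4.27 and 4.43 on the sham arrays. Cxcr6 of tissue T cells differed by 1.37. The sham mean of Cxcr6, 4.23, lay below the filter level of 4.33, so this size is uncertain. Gzmb and Cd4 differed by 0.14 and 0.05. The probe set used for Cd8a differed by −0.14, while 3 of its 4 other probe sets differed by 0.43 to 0.69, so its direction depends on the probe set. Of 27 genes listed, 21 were on the array and 14 passed the filter. Their mean level was 6.38 and 5.82 on the GFP arrays, against 5.50, 5.53 and 5.62 on the sham arrays. Of the 14, 10 were higher with a median of 0.11 (0.02 without GFP array 1 and 0.20 without GFP array 2), and of all 21, 17 were higher with a median of 0.50.

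Complement and microglial genes differed less than the antigen presentation genes. C1ra, a protease of the classical complement pathway, was at 6.13 and 5.92 on the GFP arrays, against 4.94, 5.17 and 5.15 on the sham arrays, and was called in the 5-array fit (adjusted p = 0.0483). C1qa, a chain of C1q made by microglia, was at 10.67 and 9.72 on the GFP arrays, against 9.62, 9.32 and 9.59 on the sham arrays. GFP array 2 was only just above the highest sham array. Itgb2, a subunit of complement receptor 3, differed by 0.89 and Cfb of the alternative pathway by 0.41. Of 16 tested complement genes 11 were higher with a median of 0.27, or −0.0030 without GFP array 1 and 0.51 without GFP array 2.

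Ptprc and Aif1 were among the higher genes of the microglial list. Ptprc, which encodes CD45, was at 8.63 and 7.70 on the GFP arrays, against 6.84, 6.89 and 6.95 on the sham arrays, and Aif1, which encodes Iba1, differed by 0.71. Genes of resting microglia differed less than these. Tmem119 was at 8.81 and 8.23 on the GFP arrays, against 8.32, 8.38 and 8.46 on the sham arrays. P2ry12 differed by −0.16, Cx3cr1 by 0.24, Csf1r by 0.04 and Trem2 by −0.07, and none had an unadjusted p under 0.05. Fcrls, described above, had the largest absolute difference and the smallest p of the list, and it was lower (−2.04). Of 24 tested microglial genes 18 were higher, with a median of 0.26, or −0.05 without GFP array 1 and 0.48 without GFP array 2.

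Genes raised in microglia around amyloid plaques were examined although these mice carried no APP transgene. Clec7a, a receptor for fungal glucans, was at 8.39 and 7.12 on the GFP arrays, against 6.16, 5.92 and 6.01 on the sham arrays. Cst7, an inhibitor of cathepsins, was at 6.41 and 4.77 on the GFP arrays, against 4.02, 3.86 and 4.15 on the sham arrays. The sham mean of Cst7, 4.01, lay below the filter level of 4.33, so the size of its difference is uncertain. Lyz2 and Itgax differed by 1.70 and 0.96. Other members of the same list did not separate: Apoe differed by −0.06, Cd9 by 0.12, Ctsd by 0.08 and Gpnmb by −0.03, each with overlapping groups. Of 22 tested genes 17 were higher with a median of 0.12, or 0.05 without GFP array 1 and 0.22 without GFP array 2.

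Gfap, the intermediate filament of astrocytes, was at 10.81 and 10.54 on the GFP arrays, against 10.86, 10.53 and 10.65 on the sham arrays. The difference of −0.01 ± 0.32 (SE) had an adjusted p of 0.997, and its sign changed under 4 of the alternative settings. Vim, another intermediate filament that reactive astrocytes raise, was at 10.09 and 9.60 on the GFP arrays, against 9.49, 9.14 and 9.21 on the sham arrays. Serpina3n was at 9.77 and 10.34 on the GFP arrays, against 10.14, 8.86 and 8.84 on the sham arrays, with sham array 1 among the GFP values. Aspg, an asparaginase raised in reactive astrocytes, differed by 0.53 with an unadjusted p of 0.000258. Of 18 tested genes of reactive astrocytes 12 were higher with a median of 0.33. This list shares Psmb8 with the class I list and Cxcl10 with the interferon list. Of 16 general astrocyte genes 6 were higher with a median of −0.04, the same as that of all genes.

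Because Pmaip1 is a target of p53, 17 tested p53 targets were examined with it. Cdkn1a, which encodes the cell cycle inhibitor p21, was at 7.36 and 7.34 on the GFP arrays, against 7.36, 7.45 and 7.23 on the sham arrays. Mdm2, which degrades p53, differed by −0.15. Btg2 and Trp53inp1 differed by 0.29 and 0.34 with unadjusted p-values of 0.0173 and 0.0322. Of the 17 genes 9 were higher with a median of 0.0044 (−0.02 without GFP array 1 and 0.01 without GFP array 2), and Pmaip1 was the only one called by limma in the 13-array fit.

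Neuronal genes gave medians near that of all genes. Over 14 general neuronal markers the median was 0.01, and their mean was 11.67 and 11.72 on the GFP arrays, against 11.63, 11.70 and 11.67 on the sham arrays. Thy1, a surface protein of neurons, was at 12.65 and 12.56 on the GFP arrays, against 12.67, 12.63 and 12.64 on the sham arrays. App was at 13.17 and 13.23 on the GFP arrays, against 13.11, 13.20 and 13.12 on the sham arrays. Medians were 0.03 for 17 dentate granule cell markers, −0.02 for 9 markers of CA1, −0.03 for 14 markers of CA2 and CA3, and −0.06 for 17 interneuron markers. The granule cell markers averaged 8.77 and 8.30 on the GFP arrays, against 8.66, 8.51 and 8.39 on the sham arrays, so that the GFP arrays spanned the sham range. Leaving out 1 GFP array turned the sign of some of these medians. The granule cell median was −0.19 with 4 of 17 higher without GFP array 1, and 0.22 with 16 of 17 higher without GFP array 2. Without GFP array 2 it was 0.05 for CA2 and CA3 and 0.02 for interneurons, and without GFP array 1 it was −0.01 for general neuronal markers and 0.0021 for CA1.

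Genes of BDNF signalling were examined because the GFP vector served as the control for BDNF in the series. Bdnf was at 9.12 and 8.60 on the GFP arrays, against 8.84, 8.81 and 8.82 on the sham arrays, a difference of 0.04 ± 0.22 (SE) with an adjusted p of 0.967. The GFP arrays lay on either side of the sham arrays. Ntrk2, which encodes the BDNF receptor TrkB, differed by 0.01 ± 0.12 (SE, adjusted p = 0.989) on the probe set used. Its other probe sets differed by −0.26 to 0.43, so its direction depends on the probe set. The one with the largest difference was at 9.83 and 9.87 on the GFP arrays, against 9.55, 9.25 and 9.47 on the sham arrays. Over 23 tested genes of this pathway the median was −0.01 (−0.09 without GFP array 1 and 0.0075 without GFP array 2), with 0 at an unadjusted p under 0.05 on the higher side and 3 on the lower. The limma fit called 0 of the 23.

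Several lists were lower in GFP hippocampi, with small differences. Of 19 tested genes of oligodendrocytes and myelin 15 were lower with a median of −0.20, and 8 had GFP arrays wholly below sham (18.9% of all genes). Fa2h, which hydroxylates fatty acids of myelin lipids, was at 9.11 and 8.97 on the GFP arrays, against 9.40, 9.48 and 9.29 on the sham arrays. Ugt8a, which makes the galactolipid that Galc degrades, differed by −0.38, and Myrf, a transcription factor of myelination, by −0.43. The structural gene Mbp differed by 0.04, and by −0.11 as the mean of its probe sets. The median of the list was −0.35 without GFP array 1 and −0.03 without GFP array 2.

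Of 20 genes of cholesterol synthesis 18 were lower with a median of −0.16, and 8 had GFP arrays wholly below sham (18.9% of all genes). In entorhinal cortex 8 of the 20 were higher, with a median of −0.03. Dhcr7, which catalyses the last step, was at 8.43 and 8.36 on the GFP arrays, against 8.71, 8.79 and 8.66 on the sham arrays. Hmgcs1 differed by −0.29 on the probe set used and by 0.05 as the mean of its probe sets. Of 17 choroid plexus genes 16 were lower with a median of −0.56, and sham array 1 held the highest level for Ttr, the thyroxine carrier of choroid plexus. Ttr was at 8.06 and 7.28 on the GFP arrays, against 13.75, 8.37 and 7.19 on the sham arrays. Without sham array 1 the median was −0.07, with 3 of the 17 higher. With the mean of these markers as a covariate 6 genes were called, among which Galc was not (adjusted p = 0.0919).

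**Figure D3:**
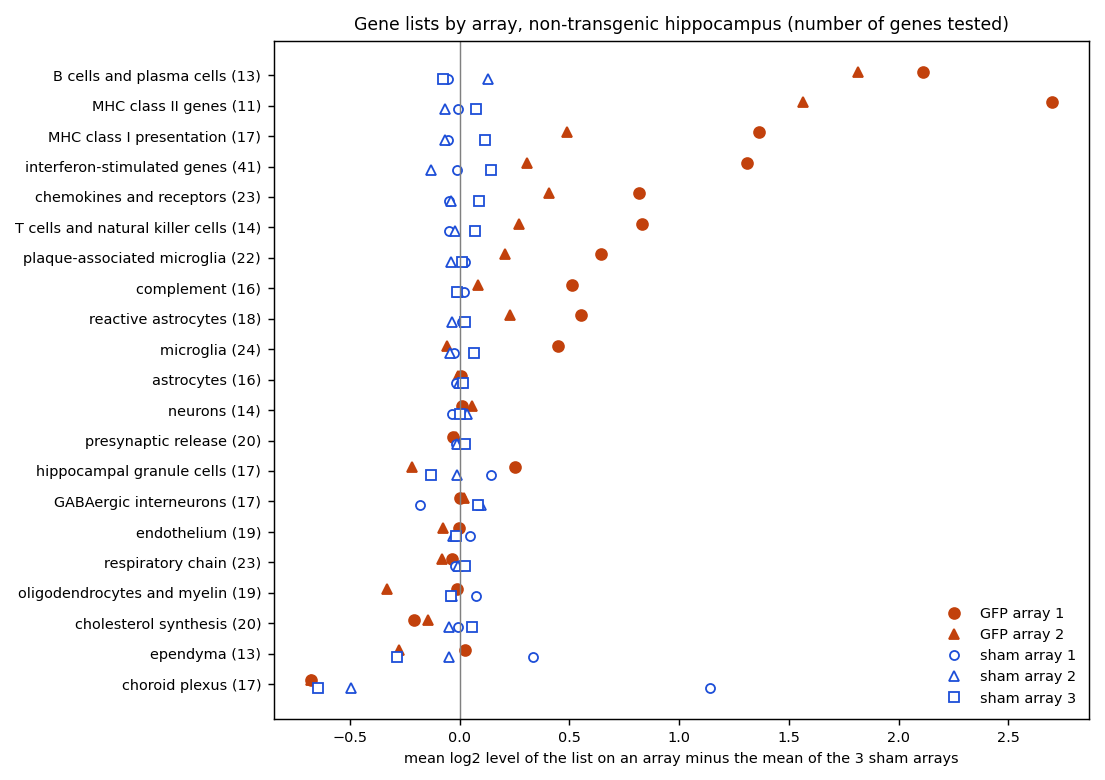
Mean log2 level of the tested genes of 21 lists on each of the 5 arrays, minus the mean of the 3 sham arrays, GFP filled orange and sham open blue, with the number of genes tested beside each list. Both GFP arrays lie right of all sham arrays for antibody, MHC, interferon, chemokine and T cell lists, and sham array 1 stands apart for choroid plexus.

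The injected region, the entorhinal cortex, had been profiled in the same groups, with 2 GFP arrays and 3 sham arrays. No label links the arrays of both regions to 1 animal. There the GFP minus sham comparison called 3 genes (0.0201%), 1 higher (0.00669%) and 2 lower (0.0134%), and all 3 were also called in hippocampus. Cwc22 rose by 1.11 (adjusted p = 0.00936), Galc fell by 0.87 and Fgf1 fell by 0.77 (adjusted p = 0.0222 each). Pmaip1 differed by 1.17 in entorhinal cortex and was not called there. At an unadjusted p under 0.05 entorhinal cortex had 441 genes (2.95%), 205 higher (1.37%) and 236 lower (1.58%). GFP arrays lay wholly above sham arrays there for 9.39% of genes and wholly below them for 9.79%.

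Immune genes set the GFP arrays of entorhinal cortex apart from each other. In entorhinal cortex Ighm was at 12.82 and 6.92 on the GFP arrays, against 6.58, 6.88 and 6.93 on the sham arrays, so that 1 GFP array lay within the sham range. In hippocampus both GFP arrays had been above 12. Cd74 was at 11.44 and 8.24 on the GFP arrays of entorhinal cortex, against 6.90, 7.35 and 6.88 on the sham arrays. Medians in entorhinal cortex were 1.13 for class II, 0.60 for class I, 0.49 for interferon-stimulated genes and 1.18 for B cell and plasma cell genes. All 11 class II genes and 39 of 41 interferon-stimulated genes were higher in entorhinal cortex, where 49.9% of all genes had a difference above 0. The class II mean was 9.05 and 7.91 on the GFP arrays of hippocampus, against 6.34, 6.28 and 6.42 on the sham arrays, and 9.13 and 6.99 on the GFP arrays of entorhinal cortex, against 6.60, 6.75 and 6.52 on the sham arrays.

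The difference of the GFP effect between the regions was tested over all 26 arrays. By limma 0 of 14941 genes were called (0%), while 373 had an unadjusted p under 0.05 (2.5%), 151 with the higher effect in hippocampus (1.01%) and 222 with the lower (1.49%). The effect was higher in hippocampus for 40.4% of genes. Creg2 ranked first in this test, with a difference of 1.97 in hippocampus and 0.50 in entorhinal cortex. The effects differed by 1.47 ± 0.33 (SE) and Creg2 was not called (limma adjusted p = 0.99986). In entorhinal cortex Creg2 was at 9.995 and 10.52 on the GFP arrays, against 9.79, 9.78 and 9.69 on the sham arrays. Malat1, a nuclear noncoding RNA, differed by 0.82 in hippocampus and −0.34 in entorhinal cortex. It was at 11.75 and 12.05 on the GFP arrays of hippocampus, against 11.66, 10.93 and 10.65 on the sham arrays. Fzd4 differed by −0.46 in hippocampus and 0.04 in entorhinal cortex. Its other probe sets were dimmer and differed by −0.09 and −0.08 in hippocampus, with overlapping groups. Abhd3, a phospholipase, differed by 0.40 in hippocampus and −0.13 in entorhinal cortex. Over all genes the differences in the 2 regions correlated at a Pearson r of 0.675 and a Spearman rho of 0.336, as a description across genes, which are not independent.

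**Figure D4:**
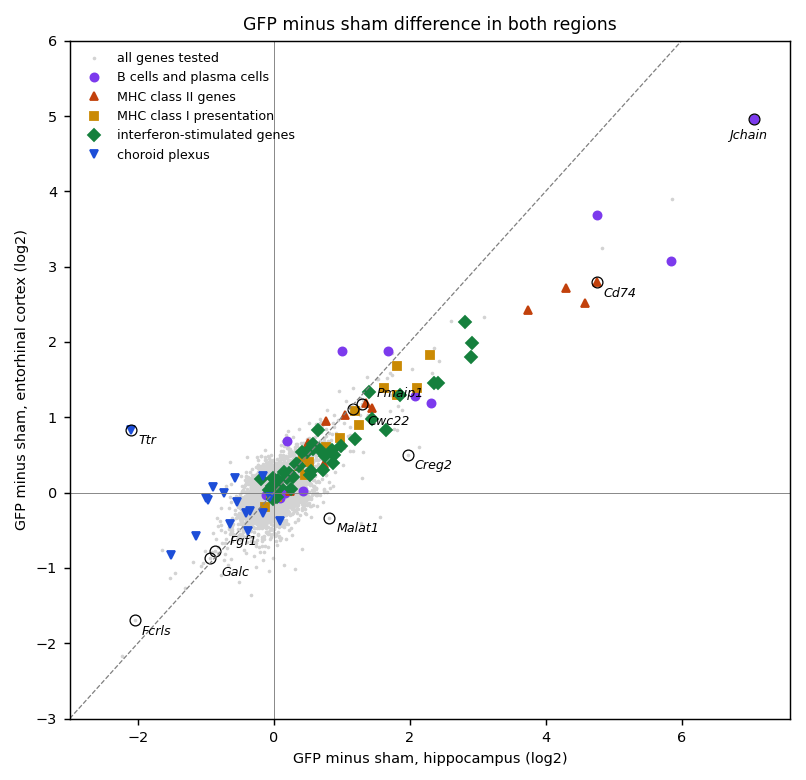
GFP minus sham difference of each of 14941 genes in hippocampus (x axis, log2) against entorhinal cortex (y axis, log2), with 5 gene lists coloured and some genes circled. The dashed line marks equal differences. Most MHC and interferon genes lie in the upper right quadrant, Cwc22, Pmaip1, Galc and Fgf1 lie near the dashed line, and Creg2 and Malat1 lie below it.

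Among the further genes called in the 5-array fit were some outside the gene groups above. Dhx36, a helicase that unwinds G-quadruplexes, was at 9.31 and 9.41 on the GFP arrays, against 8.58, 8.55 and 8.46 on the sham arrays. Its other 2 probe sets differed by −0.04 and 0.01. Lgr6, a receptor for R-spondins, differed by 1.57 in hippocampus and −0.32 in entorhinal cortex, and its other probe set by 0.11 in hippocampus. Supt16, a histone chaperone subunit, was at 8.96 and 8.83 on the GFP arrays, against 9.73, 9.61 and 9.70 on the sham arrays. The zinc finger gene Zfp458 differed by 0.89. Slpi was at 9.05 and 8.89 on the GFP arrays, against 6.68, 6.37 and 6.59 on the sham arrays, and had an adjusted p of 0.000753 in that fit.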

How the data were processed

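Expression levels were measured on Affymetrix arrays. The authors deposited log2 values in 1 table, with RMA named per the submitters' processing notes. RMA corrects background, applies quantile normalization and summarizes the probes of a set. No version of RMA and no build was found in the labels. This gives arrays a common distribution (medians 5.56 to 5.57 on the 5 arrays), so a shift common to most genes cannot be seen, and it compresses differences of dim probe sets. Samples were grouped by their titles, which name no batch.

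Of 45101 probe sets, 34958 had 1 gene symbol in the platform annotation, 932 had several and 9211 had none. For 34754 of the first kind the symbol was renewed by Entrez identifier from a RefSeq table of GRCm38.p6, used for names only. The probe set with the highest mean over 26 arrays stood for each of 18194 genes, and 14941 remained after removing those with a mean under 4.33, the 30th percentile over probe sets. Linear models (limma 3.58.1, R 4.3.3; lmFit, contrasts.fit, eBayes) used 13 arrays of a region in 4 groups, and all 26 arrays in 8 groups for the difference between regions. Tests were 2-sided. The fitting was tested on simulated data. Replicates whose labels call them biological were not linked across regions, and nothing beyond that word says how they differ, so p-values measure the spread between these samples.

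The alternatives tried were filtering at the 50th percentile or not at all, probe sets tested singly or averaged per gene, a second quantile normalization, median centring, the trend and robust options of eBayes, array weights, fits to all 26 or only the 5 arrays, the replicate block, Xist or choroid plexus markers as a covariate, and leaving out each array. Named genes were up to 10 per direction by call and then by p, up to 4 called or the 3 with the smallest p of each list described, genes that define a list, Gfap, Bdnf, Ntrk2, App and Thy1, and the 5 with the smallest p for the difference between regions. Other list members, and the genes called on 5 arrays alone, were picked with their values known. The 37 lists of 760 genes (645 tested) and the comparison itself were chosen with earlier results of these data known. Promoter sequences and coordinates are from RefSeq on GRCm38.p6. They were matched by symbol.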

Additional observations from a re-analysis of the deposited data

Results flagged for a closer look

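One value was flagged as apart from the rest of its group. The mean of the 11 MHC class II genes on transgenic hippocampal GFP array 4 was 6.32, the lowest of the 4 arrays of its group, whose median was 8.24 and highest 8.48. Its gap to the nearest of the others was 0.883 of the range of the group. It lay within the range of the non-transgenic sham arrays, 6.28 to 6.42. So did the lowest of the 4 transgenic hippocampal BDNF arrays, at 6.29, in a group with a median of 6.94 and a highest value of 7.74. The check covered the MHC class II list, the list of B cells and plasma cells and each called gene, in both transgenic hippocampal groups. Chance flags about 1 in 20 such checks, so 1 flag among them can arise by chance. Transgenic GFP array 4 entered the estimate of the spread in the 13-array fit.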

How the results depend on the processing

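The number of genes called in hippocampus was 5, and it was 10 with probe sets tested singly (5 of them without a single gene symbol), 3 with probe sets averaged per gene (Galc and Fgf1 lost), 4 with the trend and robust options (Creg2 lost, adjusted p = 0.0595), 8 with array weights, 8 with all 26 arrays in 1 fit and 21 with only the 5 non-transgenic arrays. Leaving out 1 array gave 2 to 10 calls, 2 without GFP array 2 and 10 without GFP array 1. With the replicate number as a block 5 genes were called, 4 of them the same genes, and Creg2 was lost (adjusted p = 0.131). Deviations of same-numbered arrays correlated at −0.041 and 0.0134. With 2 GFP arrays the deviations mirror each other, so this check could not decide whether same-numbered samples are linked. In entorhinal cortex 3 genes were called, against 1 with probe sets averaged, 0 with only its 5 arrays and 0 to 1 without 1 array. The difference between regions gave 0 calls under every alternative run. Signs turned for small differences. With probe sets averaged App was −0.094, Hmgcs1 0.053, Cd8a 0.27, Mbp −0.11 and Cdkn1a −0.037. With array weights Gfap was 0.020 and Ntrk2 −0.022. With the replicate block Bdnf was −0.055 and Ntrk2 −0.015. With the choroid plexus covariate Gfap was 0.087, Ntrk2 −0.092 and Ttr 0.27. Over the fits without 1 array, Gfap ranged from −0.14 to 0.13, Bdnf from −0.22 to 0.30, Ntrk2 from −0.095 to 0.092, Thy1 from −0.081 to 0.0042, Tmem119 from −0.15 to 0.43, Mbp from −0.021 to 0.11 and Cdkn1a from −0.053 to 0.055. The causes were not tested.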

Other observations

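Some gene groups were not described above. Icam1, an adhesion molecule that leukocytes bind on endothelium, was at 6.21 and 5.45 on the GFP arrays, against 4.96, 4.62 and 4.86 on the sham arrays (difference 1.02, limma adjusted p = 0.373). Cldn5, a tight junction protein of brain endothelium, differed by −0.36 (limma adjusted p = 0.496). Of 19 tested endothelial genes 6 were higher and 13 lower, with a median of −0.12. Over all genes tested 38.3% were higher, with a median of −0.04. Gpr17, a receptor of the oligodendrocyte lineage, was at 8.01 and 8.02 on the GFP arrays, against 8.43, 8.41 and 8.45 on the sham arrays (difference −0.41, limma adjusted p = 0.373). These 3 genes were picked with their values known.

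Of 28 immediate early genes 19 were higher with a median of 0.06 (0.13 without GFP array 1 and 0.0088 without GFP array 2), and of 29 genes of heat shock and protein folding 23 were lower with a median of −0.10 (−0.13 without GFP array 1 and −0.05 without GFP array 2). The 23 respiratory chain genes had a median of −0.05, against −0.04 for all genes tested, or −0.10 without GFP array 1 and 0.0095 without GFP array 2. None of these 3 lists held a called gene in the 13-array limma fit.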
